A study of Homo sapiens with 6 samples.

Results

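The genes of the WNT pathway are described here in A-375, an established human melanoma cell line whose RNA was sequenced. The libraries labelled sgSEPHS2 (3) carry a guide against SEPHS2, whose enzyme makes the selenophosphate used to build selenocysteine, and the libraries labelled sgCTRL (3) carry a control guide. Members were chosen by symbol, as every name that begins with WNT, FZD, DKK or SFRP followed by a digit and is not an antisense gene, together with named co-receptors, signal transducers and target genes, provided that at least 30 reads fell on the gene over the 6 libraries. Of 21631 symbols in the deposited count table, 48 fitted the names and 45 also had the reads, while DKK2, SFRP2 and WNT11 fell short with 24, 16 and 25 reads. RNF43, which the names also cover, was not analysed here. Of the 45 members, 38 passed the default expression filter of edgeR and were tested among 16910 genes, and the other 7 are given by their reads. The labels name no separate clones or cultures, so differences between the founding cells and effects of the guide cannot be told apart.

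WNT proteins are secreted, lipid-modified signals that bind frizzled receptors together with a co-receptor. In the canonical branch, LRP5 or LRP6 joins the frizzled receptor, a cytoplasmic complex of APC, AXIN and kinases stops destroying β-catenin (CTNNB1), and β-catenin enters the nucleus to work with TCF and LEF factors. In a second branch, WNT5A and the receptors ROR1, ROR2 and RYK act on cell shape and movement with little use of β-catenin, and in melanoma WNT5A is known for its link with invasive behaviour.

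In the sgSEPHS2 libraries more members fell than rose. Of 38 tested members, 14 (36.8%) fell and 4 (10.5%) rose, where 23.4% and 22.0% of all tested genes did. NKD1 and TCF7, known target genes of the canonical branch, fell, while AXIN2 and ZNRF3, the other tested target and feedback members, did not pass. The receptor ROR2, the ligand WNT16, the secreted antagonist SFRP1 and the Dickkopf family member DKK3 also fell. WNT5A, FZD1, FZD6 and ROR1 rose. CTNNB1 mRNA itself was at 491 ± 7.60 CPM (counts per 1000000 counted reads) in sgSEPHS2 libraries and 485 ± 7.45 CPM in sgCTRL libraries (SD, n = 3 each). A gene is said to have risen or fallen where edgeR's quasi-likelihood test passed a Benjamini-Hochberg adjusted p of 0.05 over all tested genes. The number that rose was 2 in place of 4 without sgCTRL replicate 2, and also without sgSEPHS2 replicate 1, because WNT5A and ROR1 lost their calls. In bulk RNA, fewer cells that express a gene and less RNA of it per cell cannot be told apart.

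The median log2 fold change of the 38 members, sgSEPHS2 over sgCTRL, was -0.16, beside 0.01 for all tested genes. The sign was negative for 27 members, and for 49.3% of all tested genes. Falls of at least 1.5-fold were called for 5 members (13.2%), where 9.07% of all tested genes had one, and no member rose that far, where 3.60% of all tested genes did. The groups did not overlap in CPM for 18 of the 38 members (47.4%), where 52.1% of all tested genes did not, so this share was near the background. FZD9, at a log2 fold change of -0.58, lay just short of the 1.5-fold mark among the members that fell. When a smooth dependence on exon length and GC content was taken out of each library, a setting added with results of these data known, 12 members fell and 7 rose, where 19.5% and 26.2% of all tested genes did.

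**Figure D1:**
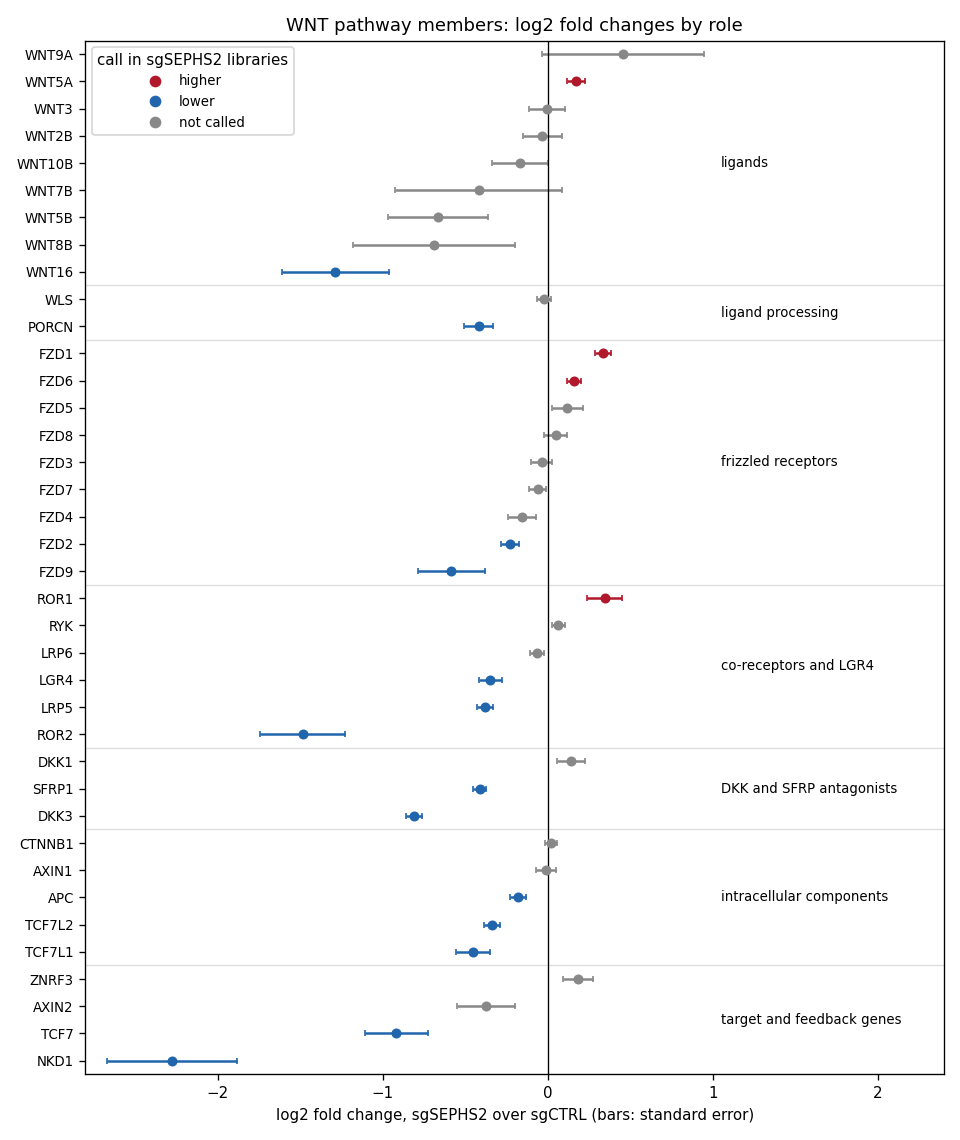
Log2 fold change of each of the 38 tested members (x axis, sgSEPHS2 over sgCTRL, bars are standard errors), grouped by role from top to bottom and coloured by call. NKD1, ROR2 and WNT16 stand furthest to the left, at -2.28, -1.48 and -1.29, and the members called higher lie between 0.16 and 0.35.

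The libraries held 34606145 to 43405579 counted reads. SEPHS2 mRNA was not lower but higher in the libraries labelled sgSEPHS2, at 173 ± 3.85 CPM against 156 ± 3.32 CPM in sgCTRL libraries (SD, n = 3 each). Its log2 fold change was 0.15 (edgeR adjusted p = 0.00401), and a gene-level count does not show whether the guide changed the reading frame. Every direction below therefore rests on the labels. Of 8 melanoma markers, 6 were tested, of which SOX10 and MITF fell and 4 did not pass. SOX10 was at 569 CPM in sgSEPHS2 and 619 CPM in sgCTRL libraries (edgeR adjusted p = 0.0164) and MITF at 18.5 and 23.5 CPM in the same order (edgeR adjusted p = 1.24e-04), while the pigment genes TYR and DCT had at most 0.106 CPM in either group mean. Summed levels in the sgSEPHS2 and sgCTRL libraries ran from 630 to 656 and from 679 to 707 CPM for all 8 melanoma markers, and from 38.6 to 43.1 and from 62.7 to 63.5 CPM for 5 of 6 listed fibroblast markers. Of these 5, PDGFRB, at 28.9 CPM in sgSEPHS2 and 52.5 CPM in sgCTRL libraries, and COL1A1 fell, LUM rose to 7.0 CPM in sgSEPHS2, against 4.13 CPM in sgCTRL libraries (edgeR adjusted p = 2.16e-05), and DCN and COL3A1 did not pass. In sgSEPHS2 and sgCTRL libraries the sums were 1.43 to 2.26 and 0.546 to 1.30 CPM for 3 of 5 keratinocyte markers, 7.82 to 8.73 and 8.69 to 9.52 CPM for 4 endothelial markers, and at most 0.148 and 0.351 CPM for 3 of 5 leukocyte markers. KRT14, the only keratinocyte marker tested, rose to 1.42 CPM in sgSEPHS2, against 0.317 CPM in sgCTRL libraries (edgeR adjusted p = 3.26e-05). The part of the fibroblast, melanoma and keratinocyte markers in the results below was not tested.

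Upstream windows are shown for a few members as a description, and their part in any change was not tested. ROR2 and ROR1 are sister receptors that moved in opposite directions. DKK1 is an antagonist whose window holds CTTTGA, the TCF/LEF motif searched, while DKK3 and SFRP1 had no matched window. FZD4 shares its start region with the divergent transcript FZD4-DT. Each window is the 250 bases upstream of a RefSeq start (GRCh38.p14), on the strand of the gene. Copies of CTTTGA on either strand are in capitals, and other forms of the TCF/LEF motif are not marked. ROR2 lies at chr9:91950229-91950478 (minus strand), ROR1 at chr1:63773767-63774016 (plus strand), DKK1 at chr10:52314031-52314280 (plus strand) and FZD4 at chr11:86955396-86955645 (minus strand).
ROR2: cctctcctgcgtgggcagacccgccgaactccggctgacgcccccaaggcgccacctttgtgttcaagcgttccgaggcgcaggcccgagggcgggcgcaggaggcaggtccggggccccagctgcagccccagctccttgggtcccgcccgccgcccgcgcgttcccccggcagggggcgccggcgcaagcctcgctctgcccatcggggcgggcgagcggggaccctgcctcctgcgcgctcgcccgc
ROR1: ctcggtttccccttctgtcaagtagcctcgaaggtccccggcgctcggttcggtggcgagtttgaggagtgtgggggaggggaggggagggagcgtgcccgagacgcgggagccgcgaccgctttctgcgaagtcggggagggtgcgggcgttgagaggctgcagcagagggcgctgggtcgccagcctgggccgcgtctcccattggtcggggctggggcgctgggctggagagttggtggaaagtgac
DKK1: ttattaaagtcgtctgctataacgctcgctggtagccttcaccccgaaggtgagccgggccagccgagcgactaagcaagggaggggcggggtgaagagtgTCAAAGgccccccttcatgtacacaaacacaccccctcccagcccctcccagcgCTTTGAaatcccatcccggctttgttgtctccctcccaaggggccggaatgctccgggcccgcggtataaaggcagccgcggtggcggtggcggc
FZD4: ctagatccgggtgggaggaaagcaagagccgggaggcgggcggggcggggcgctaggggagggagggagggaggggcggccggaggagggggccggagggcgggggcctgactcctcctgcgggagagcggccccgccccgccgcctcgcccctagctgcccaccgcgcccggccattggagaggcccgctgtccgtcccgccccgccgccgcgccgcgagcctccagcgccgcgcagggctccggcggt

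The motif searched was CTTTGA on both strands, which reads TCAAAG on the other strand, and no other motif was searched. RefSeq windows were matched for 32 of the 45 members, taking the first listed window where a gene had several. DKK1 was the only one of the 32 windows with the motif, and it held 2 copies, beginning 149 and 95 bases upstream of the start. Among all 27305 windows, 11.4% held it, as did 8.07% of the 12611 windows of tested genes. None of the 10 matched windows of members that fell and none of the 3 of members that rose held it. No window was matched for NKD1, DKK3, SFRP1 and FZD2, which fell, for FZD6, which rose, or for AXIN2. Whether their upstream regions hold the motif was not examined. The windows used for LRP5 and TCF7 lay inside the annotated span of the gene. The share of G and C was 78% for ROR2, 69.2% for ROR1, 80.8% for FZD4 and 62.8% for DKK1. The median was 64.4% for windows of tested genes and 70.8% for the 32 member windows.

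The ligands were dominated by WNT5A. Scaled to annotated exon length, WNT5A stood at 11.4 CPM per kilobase in sgSEPHS2 libraries and 10.1 in sgCTRL libraries, and WNT3, the next ligand, at 1.58 and 1.59. WNT5A made up 75.7% of the length-scaled ligand level in sgSEPHS2 libraries (74.6 to 77.6%) and 69.9% in sgCTRL libraries (69.4 to 70.3%), which is a description and was not tested. WNT5A (chromosome 3, 55465715 to 55505263, GRCh38.p14, protein-coding) measured 92.2, 78.8 and 82.5 CPM in the sgSEPHS2 libraries, against 77.6, 72.1 and 75.1 CPM in the sgCTRL libraries. The groups did not overlap, but sgSEPHS2 replicate 2 lay close above the highest sgCTRL library. The log2 fold change was 0.17 ± 0.05 (SE; edgeR adjusted p = 0.0120), and the call was lost without sgCTRL replicate 2 (adjusted p = 0.0731) or sgSEPHS2 replicate 1 (adjusted p = 0.0766).

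**Figure D2:**
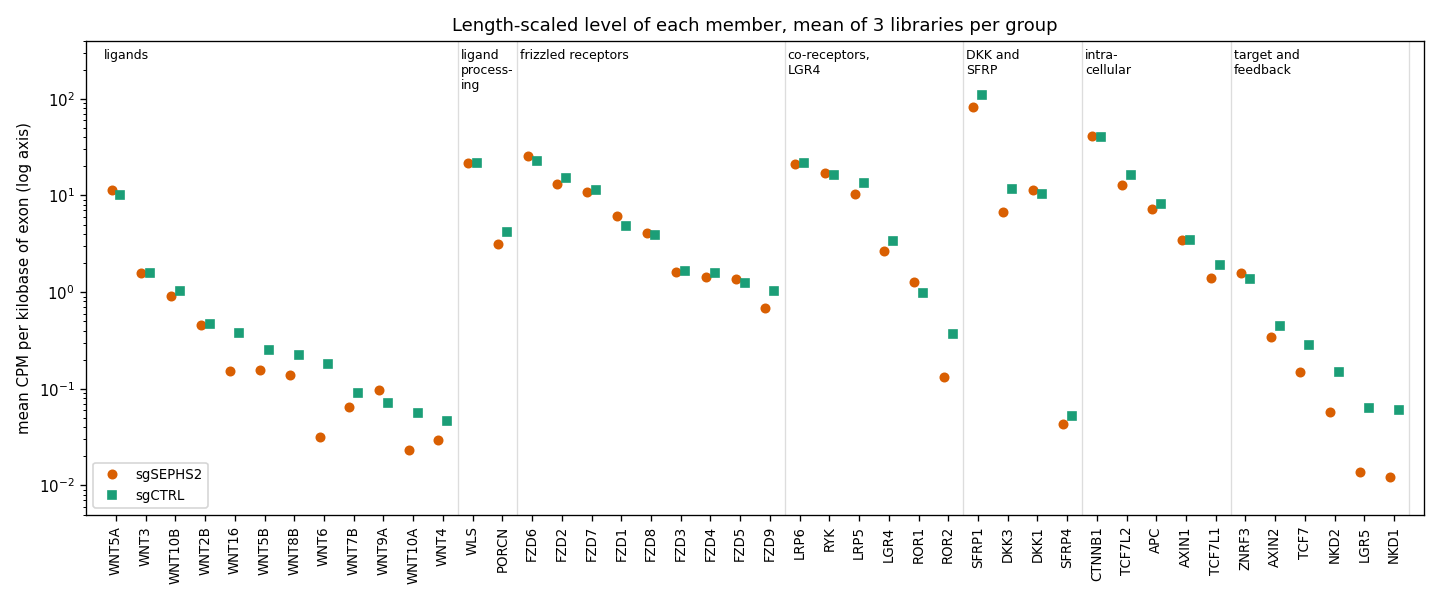
Mean level of each member with an annotated exon length in CPM per kilobase of exon (y axis, log scale) for sgSEPHS2 (circles) and sgCTRL (squares), grouped by role and ordered within it by the sgCTRL level. SFRP1 is the highest member, at 81.4 in sgSEPHS2 and 108 in sgCTRL libraries, and NKD1 and LGR5 are among the lowest.

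WNT16 was the only ligand of 9 tested that fell (11.1%), and WNT5A the only one that rose (11.1%). Among all tested genes 23.4% fell and 22.0% rose, so both shares were below the background. WNT16, known from bone and skin, had 15, 30 and 14 reads in the sgSEPHS2 libraries, against 44, 51 and 55 reads in the sgCTRL libraries, and every sgSEPHS2 library was below every sgCTRL library. Its mean was 0.494 ± 0.182 CPM in sgSEPHS2 libraries and 1.22 ± 0.167 CPM in sgCTRL libraries (SD, n = 3 each), with a log2 fold change of -1.29 ± 0.32 (SE; edgeR quasi-likelihood adjusted p = 0.00261). The gene lies on chromosome 7, 121325367 to 121341104.

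WNT5B, the close paralog of WNT5A, was at 0.677 ± 0.179 CPM in sgSEPHS2 libraries and 1.08 ± 0.180 CPM in sgCTRL libraries (SD, n = 3 each) and did not pass (log2 fold change -0.67 ± 0.30 SE, edgeR adjusted p = 0.0798). It did pass without sgSEPHS2 replicate 2, at -0.91 (edgeR adjusted p = 0.0403). The other tested ligands did not pass either, with log2 fold changes of -0.01 for WNT3, -0.03 for WNT2B, -0.17 for WNT10B, -0.42 for WNT7B, -0.69 for WNT8B and 0.46 for WNT9A. The SEs of WNT7B, WNT8B and WNT9A were 0.51, 0.49 and 0.49, so changes of 1.5-fold were not detectable for them at this depth. WNT3 had the same count as LOC101929777 in every library, and 2661 exon bases of WNT2B are shared with ST7L on the opposite strand, so the values of WNT3 and WNT2B are uncertain.

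WNT6 and WNT10A, ligand genes that neighbour each other on chromosome 2 (218859805 to 218874233 and 218874116 to 218893928), were too low for the test. WNT6 had 4, 2 and 0 reads in the sgSEPHS2 libraries, against 15, 16 and 7 reads in the sgCTRL libraries. That is a ratio of 0.165 (95% exact conditional binomial interval 0.0572 to 0.394, counting error only). WNT10A had 4, 0 and 5 reads in the sgSEPHS2 libraries, against 10, 10 and 4 in the sgCTRL libraries (ratio 0.393, interval 0.161 to 0.875). The groups did not overlap for WNT6 and did for WNT10A. WNT4 had 4, 6 and 6 reads in the sgSEPHS2 libraries, against 11, 4 and 11 in the sgCTRL libraries (ratio 0.645, interval 0.323 to 1.25). With no filter on low counts, edgeR gave adjusted p = 0.0143 for WNT6, 0.272 for WNT10A and 0.529 for WNT4.

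Of the genes that prepare ligands for release, PORCN fell and WLS did not pass. PORCN, which attaches the lipid that WNT proteins need for secretion, was at 9.42 ± 0.802 CPM in sgSEPHS2 libraries and 12.6 ± 0.528 CPM in sgCTRL libraries (SD, n = 3 each), a log2 fold change of -0.42 ± 0.09 (SE; edgeR quasi-likelihood adjusted p = 5.07e-04). WLS, the carrier that takes WNT proteins to the cell surface, measured 96.5, 96.9 and 94.3 CPM in the sgSEPHS2 libraries, against 96.2, 97.8 and 98.0 CPM in the sgCTRL libraries. These values overlap, and 111 exon bases of WLS are shared with GNG12-AS1 on the opposite strand. The log2 fold change was -0.02 ± 0.04 (SE; edgeR adjusted p = 0.712).

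Frizzled receptors moved in both directions. Of 9 tested, FZD1 and FZD6 rose (22.2%), FZD2 and FZD9 fell (22.2%), and 5 did not pass. These shares were near the 22.0% and 23.4% of all tested genes. FZD6, the most abundant frizzled mRNA per kilobase, measured 104, 103 and 105 CPM in the sgSEPHS2 libraries, against 92.8, 93.9 and 92.9 CPM in the sgCTRL libraries. The groups were tight and did not overlap, and the log2 fold change was 0.16 ± 0.04 (SE; edgeR adjusted p = 0.00294). With the length and GC trend removed it was 0.08 and did not pass (edgeR adjusted p = 0.0806).

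FZD1 (chromosome 7, 91264433 to 91271326) measured 42.7, 43.2 and 42.3 CPM in the sgSEPHS2 libraries, against 35.0, 32.7 and 33.8 CPM in the sgCTRL libraries. It had the largest rise among the frizzled genes, with a log2 fold change of 0.34 ± 0.05 (SE; edgeR quasi-likelihood adjusted p = 1.42e-05), and kept its call in all 15 alternatives. FZD2 was at 27.4 ± 0.973 CPM in sgSEPHS2 libraries and 32.1 ± 1.15 CPM in sgCTRL libraries (SD, n = 3 each), a log2 fold change of -0.23 (edgeR adjusted p = 0.00193), also kept in all 15. FZD9 was at 1.60 ± 0.241 CPM in sgSEPHS2 libraries and 2.42 ± 0.560 CPM in sgCTRL libraries, with overlapping groups (log2 fold change -0.58 ± 0.20 SE, edgeR adjusted p = 0.0233). Its call was lost with DESeq2 (adjusted p = 0.0574), with the length and GC trend removed (edgeR adjusted p = 0.122), and without sgCTRL replicate 1, sgCTRL replicate 2, sgSEPHS2 replicate 1 or sgSEPHS2 replicate 3 (edgeR adjusted p = 0.0610 to 0.126).

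The frizzled genes that did not pass had log2 fold changes of -0.15 for FZD4, -0.06 for FZD7, -0.04 for FZD3, 0.05 for FZD8 and 0.12 for FZD5, with SEs of 0.05 to 0.09. FZD8 was called higher, at 0.19, after removal of the length and GC trend (edgeR adjusted p = 0.0320). FZD4 shares 1399 exon bases with PRSS23 on the opposite strand, and since the strand setting of the counting is not known, its reads are uncertain. FZD4-DT, a long noncoding RNA that starts beside FZD4 and runs the other way, had 2, 9 and 4 reads in the sgSEPHS2 libraries, against 10, 19 and 10 in the sgCTRL libraries. That is a ratio of 0.403 (95% exact interval 0.206 to 0.748, counting error only), and with no filter edgeR gave adjusted p = 0.110.

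**Figure D3:**
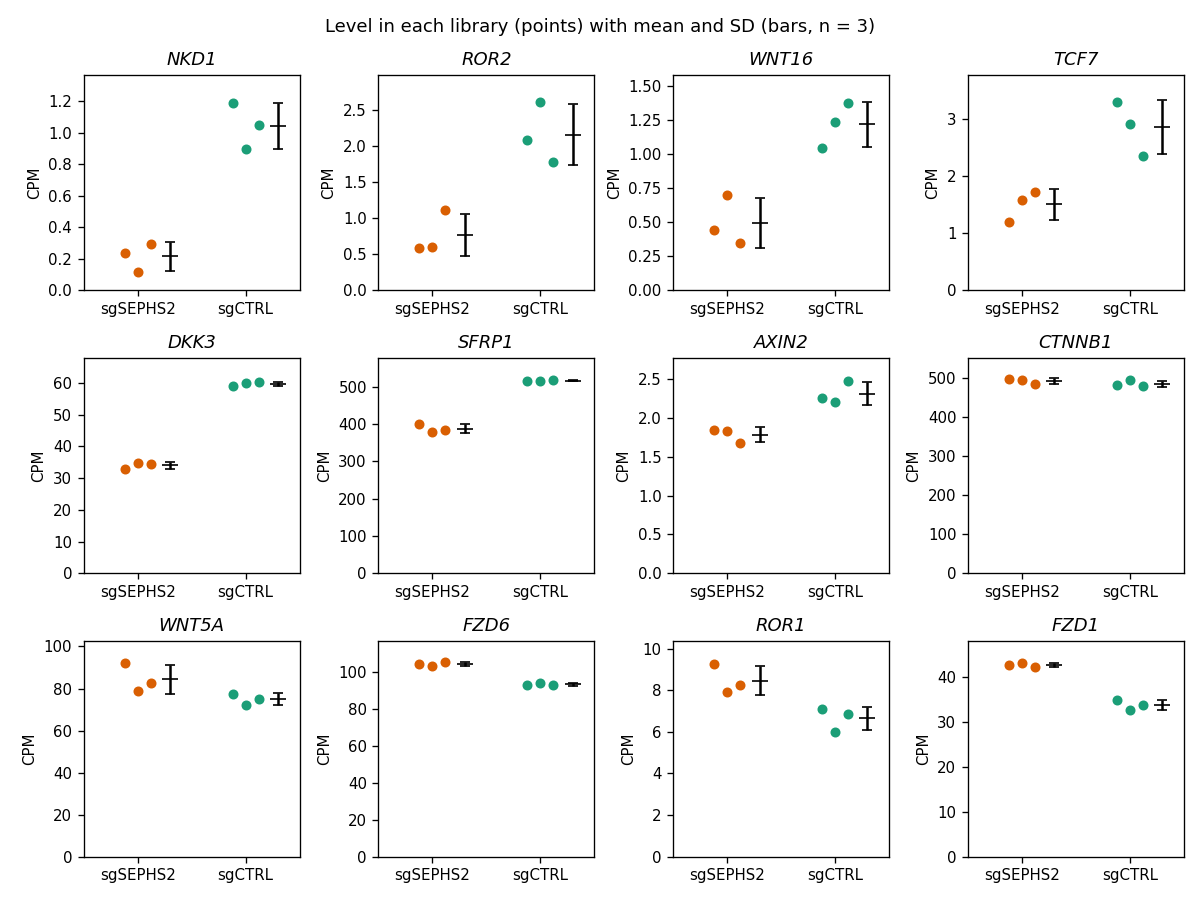
CPM of 12 members in each library (points), with the mean and SD of 3 libraries beside them, sgSEPHS2 to the left of sgCTRL in each panel and every axis starting at 0. NKD1, ROR2, WNT16, TCF7, DKK3, SFRP1 and AXIN2 are lower in every sgSEPHS2 library than in any sgCTRL library, CTNNB1 overlaps, and WNT5A, FZD6, ROR1 and FZD1 are higher.

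Among the co-receptors, ROR2 fell and its paralog ROR1 rose. ROR2 (chromosome 9, 91722601 to 91950228), a receptor tyrosine kinase-like receptor for WNT5A, had 20, 26 and 45 reads in the sgSEPHS2 libraries, against 88, 108 and 71 reads in the sgCTRL libraries. In CPM these were 0.586, 0.604 and 1.11 in sgSEPHS2 and 2.09, 2.62 and 1.78 in sgCTRL libraries, with no overlap. Its log2 fold change was -1.48 ± 0.26 (SE; edgeR adjusted p = 7.17e-05), and ranged from -1.85 to -1.32 over the alternatives, with the call kept in each.

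ROR1 (chromosome 1, 63774017 to 64181498) measured 9.25, 7.89 and 8.24 CPM in the sgSEPHS2 libraries, against 7.09, 6.01 and 6.84 CPM in the sgCTRL libraries. The groups did not overlap, and the log2 fold change was 0.35 ± 0.11 (SE; edgeR adjusted p = 0.0112). Without sgCTRL replicate 2 or sgSEPHS2 replicate 1 it was 0.28 in each case and did not pass (edgeR adjusted p = 0.0656 and 0.0518 in that order). Per kilobase of exon, ROR1 stood at 1.26 and ROR2 at 0.132 CPM in sgSEPHS2 libraries, against 0.990 and 0.371 CPM in sgCTRL libraries. RYK, an atypical kinase receptor for WNT ligands, was at 137 ± 2.36 CPM in sgSEPHS2 libraries and 131 ± 3.25 CPM in sgCTRL libraries and did not pass (log2 fold change 0.06 ± 0.04 SE, edgeR adjusted p = 0.216).

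Among the canonical co-receptors, LRP5 fell and LRP6 did not pass. LRP5 measured 66.7, 64.1 and 62.6 CPM in the sgSEPHS2 libraries, against 86.6, 84.8 and 79.8 CPM in the sgCTRL libraries, with a log2 fold change of -0.38 ± 0.05 (SE; edgeR quasi-likelihood adjusted p = 1.02e-06). With the length and GC trend removed, the fall of LRP5 was smaller, at -0.21, and still passed (edgeR adjusted p = 3.75e-04). LRP6, the most abundant co-receptor per kilobase, measured 223, 209 and 217 CPM in the sgSEPHS2 libraries, against 235, 227 and 216 CPM in the sgCTRL libraries, with overlapping values (log2 fold change -0.06 ± 0.04 SE, edgeR adjusted p = 0.237). LGR4, a receptor for R-spondins, which strengthen WNT signals, fell to 16.9 ± 1.48 CPM in sgSEPHS2 libraries, against 21.6 ± 0.987 CPM in sgCTRL libraries (SD, n = 3 each; log2 fold change -0.35, edgeR adjusted p = 3.54e-04).

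Among the DKK and SFRP genes, DKK3 and SFRP1 fell. SFRP1 (chromosome 8, 41261962 to 41309473), which binds WNT proteins outside the cell, was the most abundant member per kilobase. It made up 81.8% of the length-scaled level of the DKK and SFRP members in sgSEPHS2 and 83.1% in sgCTRL libraries. It measured 401, 378 and 384 CPM in the sgSEPHS2 libraries, against 514, 516 and 517 CPM in the sgCTRL libraries. The sgCTRL libraries were nearly identical and every sgSEPHS2 library was lower. Its log2 fold change was -0.41 ± 0.04 (SE; edgeR adjusted p = 3.13e-08), with a range of -0.44 to -0.38 over the alternatives.

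DKK3 (chromosome 11, 11963036 to 12009745), a divergent member of the Dickkopf family, measured 32.9, 34.7 and 34.4 CPM in the sgSEPHS2 libraries, against 59.0, 59.9 and 60.1 CPM in the sgCTRL libraries. These groups were far apart beside their spread, and DKK3 had the smallest adjusted p of any member (log2 fold change -0.81 ± 0.05 SE, adjusted p by edgeR's quasi-likelihood test = 1.72e-11). DKK1, which blocks LRP5 and LRP6, measured 29.9, 22.9 and 22.3 CPM in the sgSEPHS2 libraries, against 22.4, 21.7 and 23.7 CPM in the sgCTRL libraries. Only sgSEPHS2 replicate 1 lay above the sgCTRL range. Its log2 fold change was 0.14 ± 0.08 (SE; edgeR adjusted p = 0.189), -0.00021 without sgSEPHS2 replicate 1 and 0.22 without sgSEPHS2 replicate 3 (edgeR adjusted p = 0.0494). SFRP4 had 19 reads over the sgSEPHS2 group and 23 over the sgCTRL group and was not tested.

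The intracellular components were split between β-catenin and AXIN1, which did not pass, and APC and the TCF7L factors, which fell. CTNNB1 measured 497, 494 and 483 CPM in the sgSEPHS2 libraries, against 481, 493 and 480 CPM in the sgCTRL libraries, and the ranges overlapped (log2 fold change 0.02 ± 0.04 SE, edgeR adjusted p = 0.714). With the length and GC trend removed CTNNB1 was called higher, at 0.15 (edgeR adjusted p = 0.00345), and so was AXIN1, a scaffold of the destruction complex, at 0.20 (edgeR adjusted p = 0.0112), beside -0.01 with the trend kept. APC, the tumour suppressor of that complex, was at 89.1 ± 5.40 CPM in sgSEPHS2 libraries and 101 ± 1.96 CPM in sgCTRL libraries (SD, n = 3 each; log2 fold change -0.18, edgeR adjusted p = 0.00355). Its call was lost with that trend removed (-0.08, edgeR adjusted p = 0.103).

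TCF7L2, a main DNA-binding partner of β-catenin, was at 86.1 ± 4.34 CPM in sgSEPHS2 libraries and 109 ± 3.43 CPM in sgCTRL libraries (SD, n = 3 each), a log2 fold change of -0.34 ± 0.05 (SE; edgeR quasi-likelihood adjusted p = 4.11e-06). TCF7L1, which acts mostly as a repressor, was at 6.14 ± 0.144 CPM in sgSEPHS2 libraries and 8.39 ± 0.723 CPM in sgCTRL libraries, a log2 fold change of -0.45 ± 0.10 (SE; edgeR quasi-likelihood adjusted p = 0.00126). Both calls were kept in all 15 alternatives.

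The target and feedback genes were low in these cells, apart from ZNRF3, and those that passed fell. NKD1 (chromosome 16, 50548396 to 50649249), a feedback inhibitor that binds Dishevelled, had 8, 5 and 12 reads in the sgSEPHS2 libraries, against 50, 37 and 42 reads in the sgCTRL libraries. Every sgSEPHS2 library lay far below every sgCTRL library. The log2 fold change of NKD1 was -2.28, SE 0.40 (edgeR adjusted p = 7.42e-05), the largest of any tested member, and ranged from -2.60 to -1.96 over the 14 alternatives in which it was tested, with the call kept in each. The ratio of group reads was 0.203 (95% exact interval 0.127 to 0.313, counting error only).

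TCF7, a TCF factor that is itself a target in several tissues, had 41, 68 and 70 reads in the sgSEPHS2 libraries, against 139, 120 and 94 reads in the sgCTRL libraries, with no overlap in CPM. Its log2 fold change was -0.92 ± 0.19 (SE; edgeR adjusted p = 5.00e-04), although 210 of its exon bases are shared with SKP1 on the opposite strand. AXIN2, the most widely used readout of canonical signalling, measured 1.85, 1.83 and 1.68 CPM in the sgSEPHS2 libraries, against 2.25, 2.20 and 2.48 CPM in the sgCTRL libraries. The groups did not overlap, yet the test did not pass (log2 fold change -0.37 ± 0.17 SE, adjusted p = 0.0885 by edgeR's quasi-likelihood test), and it did not pass in any of the 15 alternatives (adjusted p = 0.0754 to 0.237).

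ZNRF3, a ubiquitin ligase that removes frizzled receptors, went the other way from NKD1 and TCF7 without passing. It measured 11.4, 10.1 and 11.1 CPM in the sgSEPHS2 libraries, against 10.3, 9.44 and 8.84 CPM in the sgCTRL libraries (log2 fold change 0.19 ± 0.09 SE, edgeR adjusted p = 0.105). The ranges overlapped slightly, and with the length and GC trend removed ZNRF3 was called higher, at 0.28 (edgeR adjusted p = 0.0130). LGR5, a stem cell receptor and target gene, had 0, 4 and 5 reads in the sgSEPHS2 libraries, against 21, 9 and 11 in the sgCTRL libraries (ratio 0.230, 95% exact interval 0.0983 to 0.480, counting error only). NKD2, the paralog of NKD1, had 7, 4 and 8 reads in the sgSEPHS2 libraries, against 23, 23 and 7 in the sgCTRL libraries (ratio 0.376, interval 0.210 to 0.645). The groups did not overlap for LGR5 and did for NKD2. With no filter, edgeR gave adjusted p = 0.0246 for LGR5 and 0.0663 for NKD2.

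Medians of the genes beside the members on the chromosome were small. The highest, around LGR4, which itself fell, was similar in size to the rises of WNT5A and FZD6. For each of the 18 members that rose or fell, the median log2 fold change of the 20 nearest tested genes (10 on each side, at least 1 CPM) lay between -0.05 and 0.17. Around NKD1 it was 0.02, around ROR2 0.12, around DKK3 0.00 and around LGR4 0.17. Around WNT5A it was 0.09, where WNT5A itself was at 0.17, and around FZD6 it was -0.0016, where FZD6 itself was at 0.16.

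Outside the members, 105 further genes of the pathway from 6 lists were tested, of which 50 (47.6%) fell and 12 (11.4%) rose, where 23.4% and 22.0% of all tested genes did, with a median log2 fold change of -0.15. With the length and GC trend removed, 35 (33.3%) fell and 26 (24.8%) rose, where 19.5% and 26.2% of all tested genes did, and the median was -0.02, so the excess of falls among them was smaller in that setting. Their median exon length was 6697 bases, beside 5522 bases for the tested members and 4793 bases for all tested genes, and their median GC content was 52.1%, 51.4% and 48.1% in the same order. The lists were chosen with earlier results of these data known.

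**Figure D4:**
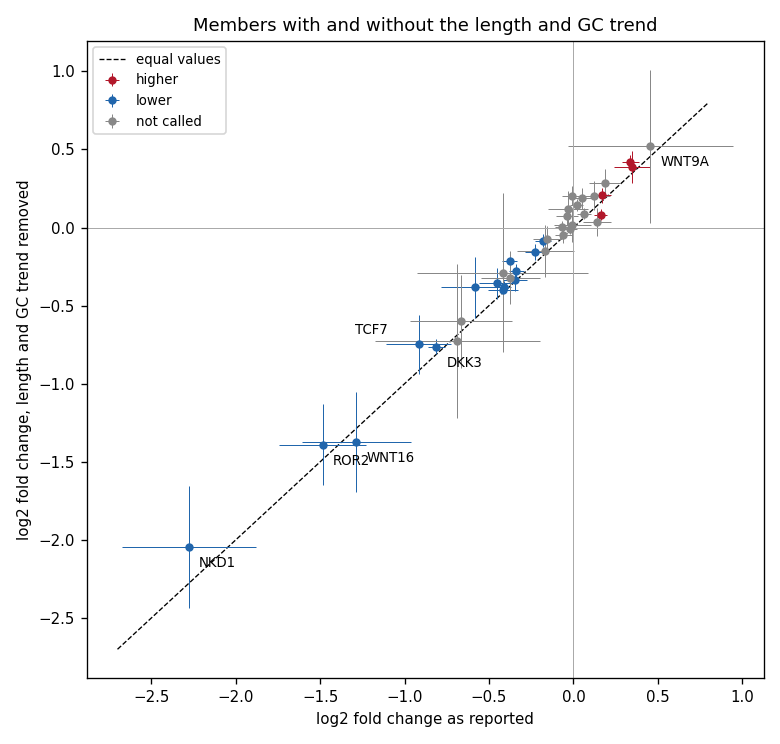
Log2 fold change of the 38 tested members as reported (x axis) and with the exon length and GC trend removed (y axis), with standard errors and the line of equal values. Members near 0 lie mostly above the line, and NKD1, ROR2, WNT16, TCF7 and DKK3 remain below -0.7 on both axes.

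Of 7 other antagonists tested, 4 (57.1%) fell and 2 (28.6%) rose, where 23.4% and 22.0% of all tested genes did. DACT1, an inhibitor that binds Dishevelled, was at 5.01 ± 1.32 CPM in sgSEPHS2 libraries and 12.5 ± 1.61 CPM in sgCTRL libraries (SD, n = 3 each; log2 fold change -1.31 ± 0.14 SE; adjusted p by edgeR's quasi-likelihood test = 1.28e-07), and its relative DACT3 fell by 1.01 on the log2 scale (edgeR adjusted p = 1.80e-06). KREMEN1, a receptor through which DKK1 acts on LRP6, was at 12.8 ± 1.33 CPM in sgSEPHS2 libraries and 22.0 ± 1.79 CPM in sgCTRL libraries (log2 fold change -0.78, edgeR adjusted p = 7.53e-08). IGFBP4, a secreted protein that can also bind WNT receptors, rose by 0.36 (edgeR adjusted p = 5.50e-06).

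Among secreted partners and their receptors, 4 of 7 tested genes fell (57.1%) and 1 rose (14.3%), beside 23.4% and 22.0% of all tested genes. GPC6, a glypican, fell by 0.72 on the log2 scale (edgeR adjusted p = 8.11e-11). ADGRA2, known for its part in WNT7 signalling in brain vessels, fell by 0.60, and TRABD2A, a protease that inactivates WNT proteins, fell by 0.71 (edgeR adjusted p = 1.51e-07 and 0.00322 in that order). RSPO3, an R-spondin, had 21, 16 and 14 reads in the sgSEPHS2 libraries, against 2, 2 and 4 in the sgCTRL libraries, so it was very low in both groups and higher in every sgSEPHS2 library (log2 fold change 2.70 ± 0.58 SE, edgeR adjusted p = 6.98e-04).

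In the list of the destruction complex and signal transduction, 13 of 25 tested genes fell (52%) and 1 rose (4%), beside 23.4% and 22.0% of all tested genes. GSK3B, the kinase that marks β-catenin for destruction, was at 230 ± 6.45 CPM in sgSEPHS2 libraries and 289 ± 2.16 CPM in sgCTRL libraries (SD, n = 3 each; log2 fold change -0.33 ± 0.04 SE, edgeR adjusted p = 6.99e-07). AMER1, which binds β-catenin and APC, fell by 0.45 and USP34 by 0.33 on the log2 scale, while PPP2CA, a phosphatase subunit, rose by 0.33 (edgeR adjusted p = 7.16e-05, 1.69e-05 and 2.70e-04 in that order). Once that trend was removed, 6 of this list fell (24%) and 5 rose (20%), near the 19.5% and 26.2% of all tested genes in that setting. Of 20 tested genes of the nuclear complex, 9 (45%) fell and none rose, beside 23.4% and 22.0% of all tested genes. With the trend removed 5 (25%) fell and 5 (25%) rose, near the 19.5% and 26.2% of all tested genes. LEF1, the other main partner of β-catenin, was at 25.1 ± 0.561 CPM in sgSEPHS2 libraries and 34.9 ± 1.12 CPM in sgCTRL libraries (log2 fold change -0.47, edgeR adjusted p = 3.96e-07). HBP1, a repressor, fell by 0.51, the corepressor TLE4 by 0.34 and TBL1XR1 by 0.26 on the log2 scale (edgeR adjusted p = 9.29e-09, 3.10e-06 and 1.59e-05 in that order).

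**Figure D5:**
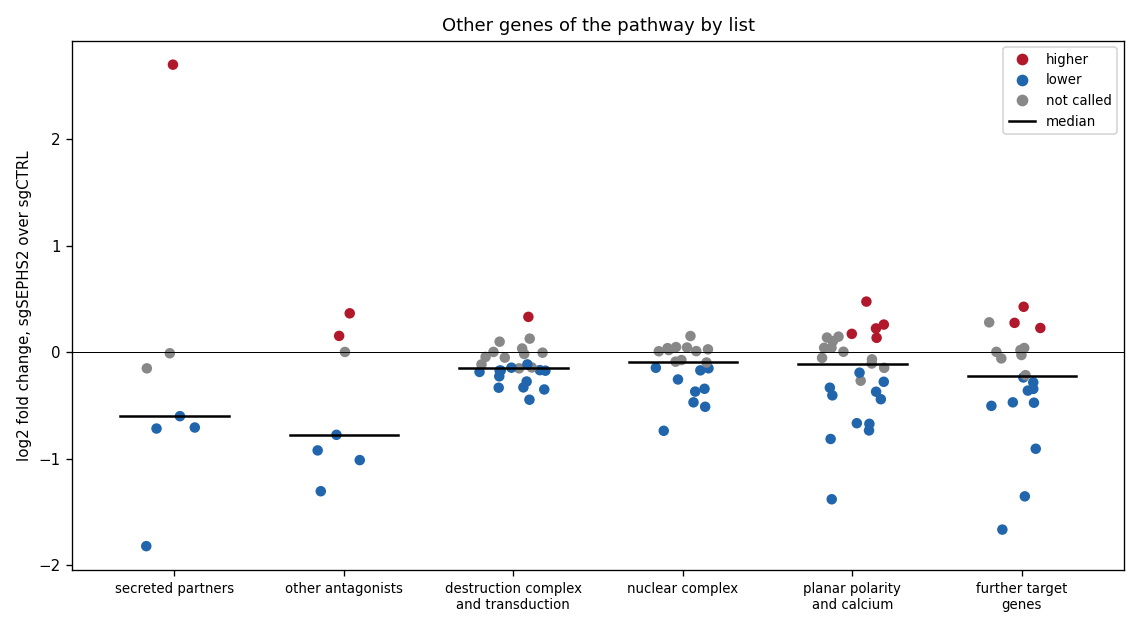
Log2 fold changes (y axis, sgSEPHS2 over sgCTRL) of the tested genes in 6 further lists of the pathway, coloured by call, with a bar at each median. The medians are -0.60, -0.78, -0.15, -0.09, -0.11 and -0.23 from left to right, and RSPO3 is the single point far above 0. LEF1 is shown in 2 of the lists.

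Of 27 tested genes for planar polarity and calcium signalling, 11 (40.7%) fell and 5 (18.5%) rose, beside 23.4% and 22.0% of all tested genes. Once that trend in length and GC was removed, 9 (33.3%) fell and 8 (29.6%) rose, beside 19.5% and 26.2% of all tested genes. NFATC2, a calcium-responsive transcription factor, was at 87.1 ± 1.38 CPM in sgSEPHS2 libraries and 145 ± 2.55 CPM in sgCTRL libraries (SD, n = 3 each; log2 fold change -0.74 ± 0.04 SE, edgeR adjusted p = 5.96e-12). The polarity cadherin CELSR2 fell by 0.67, the formin DAAM2 by 0.82 and the kinase CAMK2D by 0.33 on the log2 scale (edgeR adjusted p = 1.14e-08, 1.05e-06 and 4.44e-06 in that order). Of 20 further target genes tested, 10 (50%) fell and 3 (15%) rose, beside 23.4% and 22.0% of all tested genes. With the trend removed 8 (40%) fell and 5 (25%) rose, beside 19.5% and 26.2% of all tested genes. SALL4, a stem cell factor, was at 3.46 ± 0.457 CPM in sgSEPHS2 libraries and 11.0 ± 0.706 CPM in sgCTRL libraries (log2 fold change -1.67, edgeR adjusted p = 1.91e-10). The matrix proteoglycan VCAN fell by 1.36 and TNFRSF19 by 0.91 on the log2 scale (edgeR adjusted p = 6.84e-13 and 2.05e-12 in that order).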

How the data were processed

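RNA was sequenced from A-375 cells in 6 libraries, 3 per group by the sample titles. The authors deposited 1 table of raw counts per gene symbol. Reads were aligned with HISAT2 2.2.1 to GRCh38 and counted with featureCounts 2.0.6, per the submitters' processing notes, which also name SAMtools 1.21 and FastQC 0.12.1. The annotation, the strand setting and the handling of multiply mapped reads were not given in the sources used here. Nothing says that replicates were separate cultures, and the spread behind the p-values may therefore be technical.

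The test was edgeR 4.0.16's in R 4.3.3 (TMM factors, default filter with the group, two-sided quasi-likelihood test, Benjamini-Hochberg adjustment over 16910 genes, threshold 0.05). CPM used TMM-scaled library sizes, and levels per kilobase used the union of GENCODE exons. Positions come from RefSeq GRCh38.p14. Alternatives were DESeq2 1.42.0, limma-voom (limma 3.58.1), upper-quartile and RLE factors, a minimum of 1 CPM in 3 libraries or no minimum, a replicate block, leaving out each library, an adjusted p under 0.01 and, added later, removal of a smooth exon length and GC trend (values for 90.5% of tested genes). Full values are given for members changed at least 1.5-fold, the most abundant member per kilobase of each role, CTNNB1 and AXIN2; other members are described more briefly, and each pathway list by up to 4 members of smallest adjusted p. Members and lists were chosen with earlier results of these data known. The procedure was tested on simulated data with independent replicates and far fewer changed genes than were called here. That test therefore does not show how the procedure performs under the conditions of these data. Exact intervals cover counting error only, since PCR copies cannot be told from separate molecules.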

Additional observations from a re-analysis of the deposited data

How the results depend on the processing

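Of the 18 members called, 13 kept their call in every alternative run and none changed sign, while 5 lost it at least once, and of the 20 not called, 6 were called at least once. The number of members higher was 2 at an adjusted p under 0.01, 7 with the length and GC trend removed and 2 to 5 with 1 library left out, and 13 to 18 were lower with 1 library left out. The number of other pathway genes higher was 26 with the length and GC trend removed. Of the members not called, 7 changed sign. With 1 library left out, log2 fold changes ran from -0.00021 to 0.22 for DKK1, from -0.077 to 0.025 for FZD3, from -0.055 to 0.031 for AXIN1, from -0.11 to 0.042 for WNT2B, from -0.084 to 0.062 for WNT3 and from -0.94 to 0.032 for WNT7B. With the length and GC trend removed they were 0.0059 for LRP6, 0.075 for FZD3, 0.20 for AXIN1, 0.12 for WNT2B and 0.015 for WNT3, and limma-voom gave 0.00031 for WNT3. The cause was not tested.

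The replicate block left 4 members higher and 14 lower. Samples with the same number share only that number, with correlations of their deviations of 0.09, 0.01 and 0.12 over 14043 genes, and not every sample correlated best with its own number. Depth limits the members under about 1 CPM, where standard errors reached 0.51.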

Other observations

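Genes that mark melanoma cell states, several of which have been tied to WNT5A and β-catenin signalling in melanoma, moved in both directions. NGFR, a neural crest receptor, was at 24.1 ± 3.61 CPM in sgSEPHS2 libraries and 6.12 ± 0.342 CPM in sgCTRL libraries (SD, n = 3 each; log2 fold change 1.97, SE 0.10, edgeR adjusted p = 6.88e-13). The receptor kinase AXL was at 158 ± 3.85 CPM in sgSEPHS2 libraries and 118 ± 1.04 CPM in sgCTRL libraries (log2 fold change 0.42, edgeR adjusted p = 2.98e-08). EGFR fell to 19.5 ± 1.78 CPM in sgSEPHS2 libraries, against 37.1 ± 0.589 CPM in sgCTRL libraries, and SOX9 to 5.78 ± 0.856 CPM in sgSEPHS2 libraries, against 9.68 ± 0.578 CPM in sgCTRL libraries (edgeR adjusted p = 1.43e-10 and 1.36e-05 in that order). Of 9 tested genes of this list, 5 (55.6%) fell, 2 (22.2%) rose, and MLANA and PMEL did not pass (edgeR adjusted p = 0.682 and 0.995 in that order), where 23.4% of all tested genes fell and 22.0% rose.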
